A study of Mus musculus with 6 samples.

Results

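The metallothioneins of the retina were followed in mice that lack photoreceptor cadherin. Every probe set whose only gene symbol in the platform annotation was Mt1, Mt2, Mt3, Mtf1 or Slc30a1 was taken, which gave 5 of the 18193 genes named on the array. They had 11 of its 45037 probe sets, with 2 for Mt1, 1 for Mt2, 1 for Mt3, 5 for Mtf1 and 2 for Slc30a1. A probe set is a group of short probes read together as 1 value. Retinal RNA was measured on 6 single-colour Affymetrix arrays from mice about 4 weeks old. The wild type group held 3 arrays of strain 129 mice. The other group held 3 arrays of prCAD -/- mice, called prCAD mutant in the labels, in which the gene for photoreceptor cadherin (prCAD, now Cdhr1) is disrupted in the germline, and for which no strain is named in the labels. Each array carried RNA of the pooled retinas of 3 mice, so every spread below is a spread between pools, and 3 pools a group limit the precision of every value. The comparison asks which transcripts differ in a mouse described by the submitters as a retinal degeneration model.

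Metallothioneins are small, cysteine-rich proteins that bind zinc and copper and take up reactive oxygen species. Mt1 and Mt2 are made in many tissues, and in the retina they are known from Müller glia, astrocytes and the pigment epithelium, where metals, glucocorticoids, cytokines and oxidative stress induce them. Mt3 is the form of the nervous system and is much less inducible by metals. When zinc is in excess in a cell, the transcription factor MTF1, the product of Mtf1, binds metal response elements in DNA and turns on Mt1, Mt2 and Slc30a1, the last of which encodes the zinc exporter ZnT1 of the cell surface.

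The labels were checked on Cdhr1 first. Its probe set read 10.98 to 11.36 in the wild type arrays and 3.94 to 4.34 in the mutant arrays on the log2 scale. It was lower in the mutant arrays (limma, adjusted p = 2.18e-05), all 3 of which lay below the overall array median of 4.76, so no fold is given. The retinal identity of the RNA was checked on rod markers, of which 6 of 8 had a probe set of 1 gene symbol, all 6 above the overall median. Of these 5 lay lower in mutant retina, at a median difference of -0.16 and pair medians of -0.08, -0.04 and -0.255, and Sag, the gene of rod arrestin, lay higher by 0.26 (SE 0.09). None passed (limma; 1 of 6 at an unadjusted p under 0.05, against 3.02% of all probe sets). Their summed signal overlapped between the groups, at 14.61 to 14.79 in wild type and 14.65 to 14.81 in mutant arrays. Strain and genotype cannot be told apart in this design. Cdhr1 lies on chromosome 14, while Mt1, Mt2 and Mt3 lie on chromosome 8, Mtf1 on chromosome 4 and Slc30a1 on chromosome 1.

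The DNA before the annotated starts of the neighbouring genes Mt1, Mt2 and Mt3 is shown because MTF1 acts through short metal response elements near gene starts. Whether such elements bear on the differences described below was not tested. The 250 bases before each annotated start are from RefSeq (GRCm38.p6, plus strand, 5′ to 3′), at chr8:94178839-94179088 for Mt1, chr8:94172368-94172617 for Mt2 and chr8:94152357-94152606 for Mt3. Capitals mark a metal response element core, TGCACNC or TGCGCNC, read on either strand. Cores that lie after the annotated start, found for Mt1, Mt2 and Mt3, are outside the printed bases.
Mt1: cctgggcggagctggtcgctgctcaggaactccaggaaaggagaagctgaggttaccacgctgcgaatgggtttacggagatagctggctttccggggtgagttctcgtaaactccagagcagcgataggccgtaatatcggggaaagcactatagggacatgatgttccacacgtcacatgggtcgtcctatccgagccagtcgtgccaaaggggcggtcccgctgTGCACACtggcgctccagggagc
Mt2: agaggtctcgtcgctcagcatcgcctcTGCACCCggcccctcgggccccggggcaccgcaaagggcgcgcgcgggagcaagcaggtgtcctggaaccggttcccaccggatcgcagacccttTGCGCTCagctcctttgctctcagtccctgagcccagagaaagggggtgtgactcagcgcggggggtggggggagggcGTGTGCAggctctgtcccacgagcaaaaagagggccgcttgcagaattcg
Mt3: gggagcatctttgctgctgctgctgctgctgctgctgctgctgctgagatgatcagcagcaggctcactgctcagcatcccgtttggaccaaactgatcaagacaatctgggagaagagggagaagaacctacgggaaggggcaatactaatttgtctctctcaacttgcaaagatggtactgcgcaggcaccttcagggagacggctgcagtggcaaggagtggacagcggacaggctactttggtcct

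The search covered windows of 300 bases, 250 before and 50 after the annotated start, on both strands, with position 0 as the first base of the annotated gene. Such a window was found for all 5 genes. Mt2 held 4 cores, starting at -223 (TGCACCC), -128 (TGCGCTC), -50 (TGCACAC, other strand) and 4 (TGCGCAC, other strand). Mt1 held 3, starting at -23 (TGCACAC), 2 (TGCACTC) and 20 (TGCGCTC). Slc30a1 held 2, starting at -43 (TGCACTC) and 30 (TGCGCTC), both on the other strand, and Mt3 held 1, starting at 27 (TGCACAC). In the Mtf1 window these letters were not found. Of all 32851 windows, 25.7% held at least 1 core, 7.11% at least 2, 1.97% at least 3 and 0.517% at least 4. The antioxidant response element core TGACNNNGC, present in 12.4% of all windows, was found in that of Mt2 at -79 and in that of Slc30a1 at -82, on the other strand. Bases outside the windows were not searched, so an absence holds for the window only. The STAT palindrome TTCNNNGAA, present in 8.3% of all windows, was found in 0 of the 5. No match overlapped another. A match describes letters in the reference strain and does not show binding. The windows rest on the annotated starts, so the numbers of cores do not compare whole promoters.

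**Figure D1:**
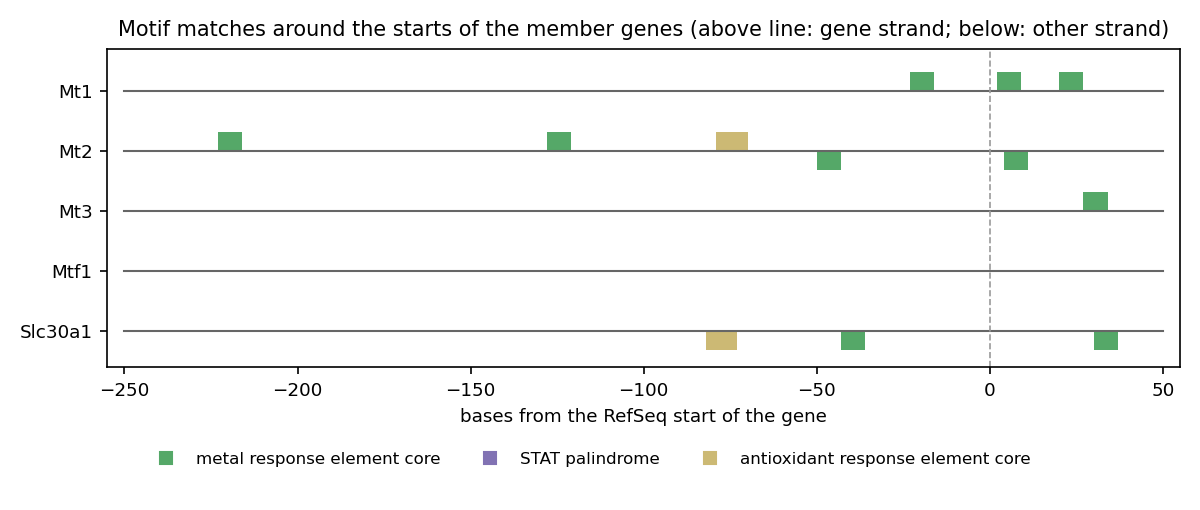
Matches to the motifs in the RefSeq windows of the 5 genes, with bases from the annotated start on the horizontal axis. Green blocks mark metal response element cores and yellow blocks antioxidant response element cores, above the line on the strand of the gene and below it on the other strand; Mt2 has 4 green blocks, Mt1 3, Slc30a1 2, Mt3 1 and Mtf1 0.

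Mt2 was higher in all 3 mutant arrays than in any wild type array, and so was Mt1 at its brighter probe set, while Mtf1 and Slc30a1 were not separated between the groups. Differences between groups were tested with limma, which fits each probe set and borrows information on the spread from all others, and p-values were adjusted over all 45037 probe sets by Benjamini-Hochberg with a threshold of 0.05. With the test on group alone 0 of the 11 member probe sets passed, against 0.0111% of all probe sets, and 3 of 11 had an unadjusted p under 0.05, against 3.02% of all. The arrays of the 2 groups carry the same replicate numbers, and arrays of the same number deviated together, so a fit with the replicate number as a block was run as well. With the block 1 of 11 passed, Mt2, against 0.0333% of all probe sets, and 4 of 11 had an unadjusted p under 0.05, against 7.6% of all. The mutant arrays lay wholly above the wild type arrays at 3 of the 11, against 4.73% of all probe sets, and wholly below at 0, against 3.07%. Over the 11 probe sets the median difference was 0.04 on the log2 scale, against 0.01 for all probe sets.

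The Mt2 probe set 1428942_at read 7.29, 7.99 and 7.55 in wild type replicates 1 to 3, and 8.51, 9.24 and 9.00 in mutant replicates 1 to 3, on the log2 scale. The groups did not overlap, and replicate 2 was the highest and replicate 1 the lowest array in each. The means were 7.61 ± 0.36 and 8.92 ± 0.37 (SD, n = 3 each). Mt2 was 1.31 higher in mutant retina (SE 0.24), a 2.48-fold level with a 95% interval of 1.68 to 3.66. By the test on group alone its adjusted p was 0.592, and by unadjusted p it held rank 69 among all probe sets. Within the pairs of same-numbered arrays the differences were 1.22, 1.25 and 1.45, a narrower spread than that of the arrays within a group. With the replicate block Mt2 rose at an adjusted p of 0.0227 (SE 0.09). Over the 14 alternatives the adjusted p ran from 0.0227 to 1.00, and it passed in 1 of them, the block. At 28 probe sets, that of Mt2 included, the difference was as large as that of Mt2 or larger.

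Mt1 was read by 2 probe sets that disagreed. The brighter, 1422557_s_at, read 8.23, 8.47 and 7.96 in the wild type and 9.06, 9.50 and 9.16 in the mutant arrays, replicates 1 to 3. Again the groups did not overlap, and replicate 2 was the highest array in each. The means were 8.22 ± 0.25 and 9.24 ± 0.23 (SD, n = 3 each). Mt1 at this probe set was 1.02 higher in mutant retina (SE 0.17), a 2.03-fold level with a 95% interval of 1.54 to 2.67. The pairs differed by 0.82, 1.03 and 1.20. It did not pass, with an adjusted p of 0.513 (rank 46 by unadjusted p), or of 0.0675 with the replicate block, the lowest of its 13 alternatives, which reached 1.00. The suffix _s_at marks, in the naming of the manufacturer, a probe set whose probes can match more than 1 transcript, and Mt1 and Mt2 transcripts are close relatives. How much of this signal comes from either gene was not tested.

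The dimmer Mt1 probe set, 1451612_at, read 5.28, 5.49 and 4.48 in the wild type and 5.63, 5.16 and 4.48 in the mutant arrays. Here the groups overlapped, and replicate 3 was the lowest array in both, below the overall array median of 4.76. The means of 5.08 and 5.09 lay little above that median, so background may limit a difference at this probe set. The difference was 0.01 (SE 0.35), with a 95% interval of -0.83 to 0.84, and the pairs differed by 0.35, -0.33 and -0.0001. That interval overlaps the one of the brighter probe set, 0.62 to 1.42. With the replicate block the intervals were -0.32 to 0.34 and 0.78 to 1.26 and did not overlap. The log2 ratio of the brighter to the dimmer probe set was 1.01 higher in mutant arrays (exact permutation test, two-sided, p = 0.2, a comparison chosen after the values were seen), and the pairs differed by 0.48, 1.36 and 1.20. Over the 6 arrays the dimmer probe set correlated with the brighter at r = 0.16, while the brighter correlated with Mt2 at r = 0.957, as a description of arrays that share their group difference.

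Mt3, which encodes the metallothionein of neurons, was read by 1 probe set, 1420575_at. It read 6.67, 6.79 and 6.49 in wild type and 6.82, 7.12 and 6.90 in mutant replicates 1 to 3. The groups did not overlap, but the lowest mutant and the highest wild type array lay close together, and replicate 2 was once more the highest in each group. The difference was 0.30 (SE 0.12), a 1.23-fold level, with means of 6.65 ± 0.15 and 6.95 ± 0.16 (SD, n = 3 each) and pair differences of 0.15, 0.33 and 0.41. It did not pass (limma, adjusted p = 1.00, or 0.584 with the replicate block).

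**Figure D2:**
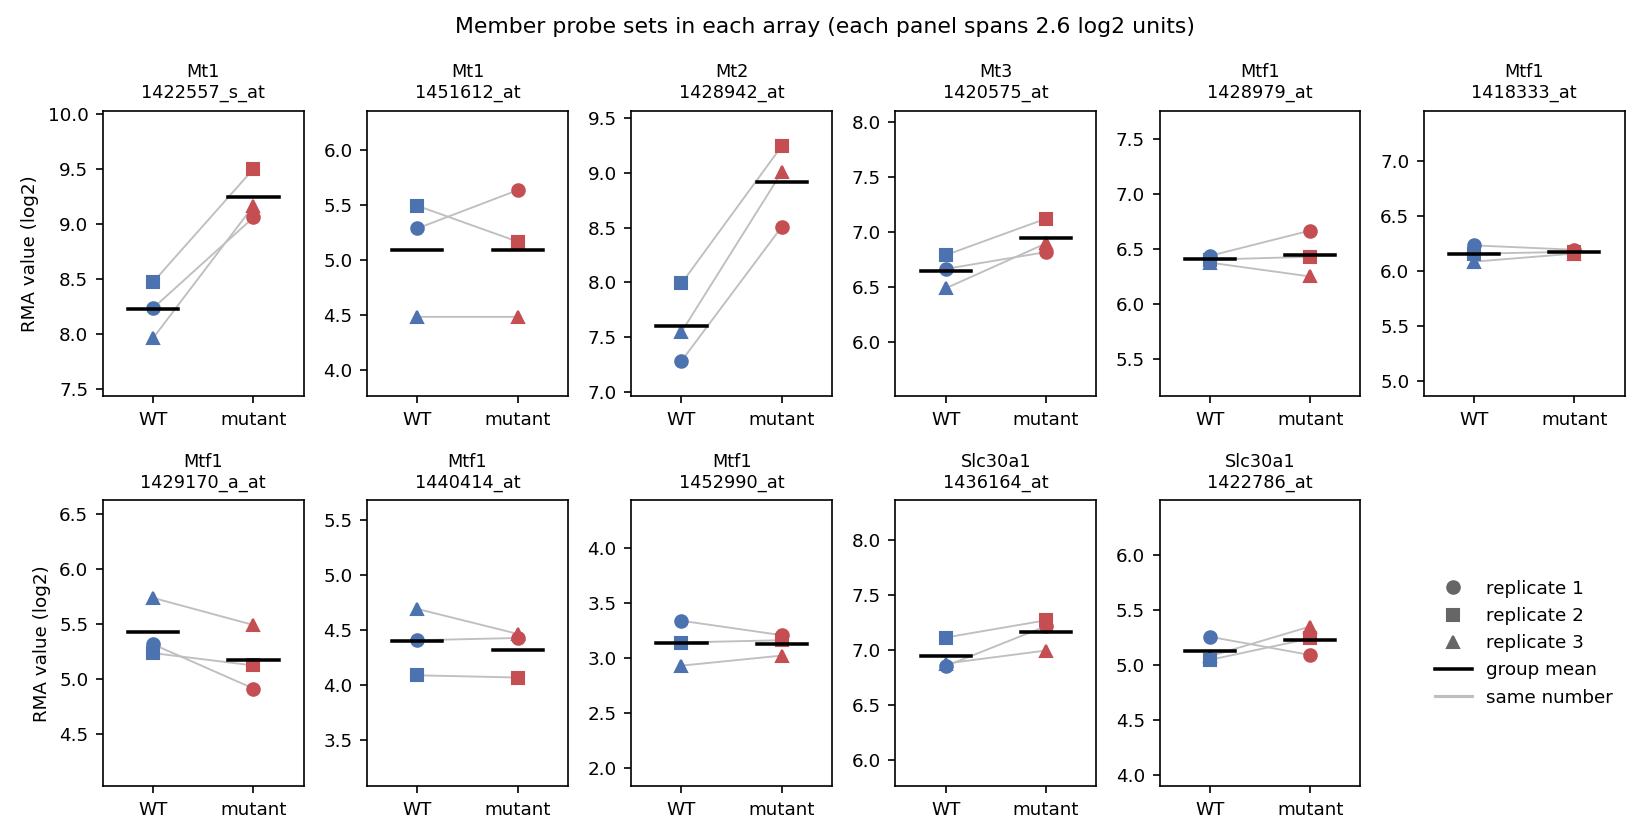
RMA values (log2) of the 11 member probe sets in each array, wild type in blue and mutant in red, with 1 marker shape for each replicate number, grey lines between arrays of the same number and black bars at the group means. Mt2, Mt1 at 1422557_s_at and Mt3 show mutant arrays above all wild type arrays, while the other 8 probe sets overlap.

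Whether the metallothioneins moved by different amounts was tested on the ratios within each array. The log2 value of Mt2 minus that of Mt3 ran from 0.62 to 1.20 in wild type and from 1.69 to 2.12 in mutant arrays, a difference of 1.01. For Mt1 at its brighter probe set minus Mt3 the ranges were 1.47 to 1.68 and 2.24 to 2.38, a difference of 0.72, and the pairs differed by 0.67, 0.70 and 0.79. Both ratios gave p = 0.1 in a two-sided exact permutation test over the 6 arrays, the smallest p that this test allows for 3 against 3 arrays, so that it cannot pass 0.05 (0.15 adjusted over the 3 ratios). The ratio of Mt2 to Mt1 was 0.29 higher in mutant arrays, with overlapping groups and pair differences of 0.40, 0.22 and 0.25 (exact permutation p = 0.3, adjusted 0.3).

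**Figure D3:**
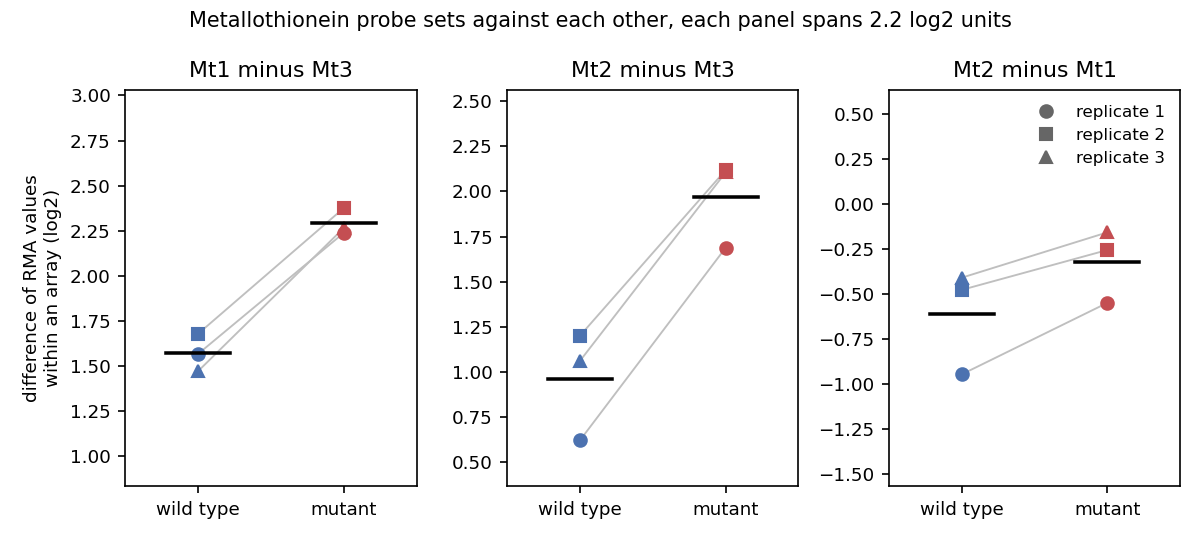
Difference of the RMA values (log2) of Mt1 at 1422557_s_at and Mt3, of Mt2 and Mt3, and of Mt2 and Mt1 within each array, with wild type in blue, mutant in red, 1 marker shape for each replicate number and black bars at the group means. The groups are apart in the panels against Mt3, by 0.72 and 1.01 in the means, and overlap in the panel of Mt2 against Mt1.

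Mtf1, which encodes the zinc-sensing transcription factor, was read by 5 probe sets, and none of them separated the groups. The brightest, 1428979_at, read 6.44, 6.41 and 6.38 in wild type and 6.67, 6.43 and 6.25 in mutant arrays, a difference of 0.04 (SE 0.12; 95% interval -0.24 to 0.33). The mutant arrays of replicates 1 and 3 lay on opposite sides of the wild type arrays. Next in brightness, 1418333_at differed by 0.02 (SE 0.09; 95% interval -0.19 to 0.22). The probe set 1429170_a_at went the other way, from 5.43 ± 0.27 to 5.18 ± 0.29 (SD, n = 3 each), with lower mutant values in 3 of 3 pairs. Its difference of -0.25 (SE 0.19) had an adjusted p of 1.00, or 0.628 with the block, by limma. The last 2, 1440414_at and 1452990_at, differed by -0.08 and -0.01 and lay below the overall array median of 4.76 in both groups, where background limits a difference.

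Slc30a1, the zinc exporter gene and a known MTF1 target, was read by 2 probe sets. The brighter, 1436164_at, read 6.86, 7.12 and 6.88 in wild type and 7.22, 7.27 and 7.00 in mutant replicates 1 to 3. The mutant array was the higher one in 3 of 3 pairs, while the groups overlapped. The difference was 0.21 (SE 0.12; 95% interval -0.07 to 0.49) and did not pass (limma, adjusted p = 1.00 on group alone, 0.658 with the block). The dimmer, 1422786_at, differed by 0.10 (SE 0.11; 95% interval -0.16 to 0.36), with mutant values higher in 2 of 3 pairs. The upper bounds of both intervals lie below the lower bounds of 0.62 for Mt1 at its brighter probe set and 0.74 for Mt2. The interval of the dimmer Mt1 probe set, -0.83 to 0.84, covers both Slc30a1 intervals. No test of the difference between Slc30a1 and the metallothioneins was run.

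**Figure D4:**
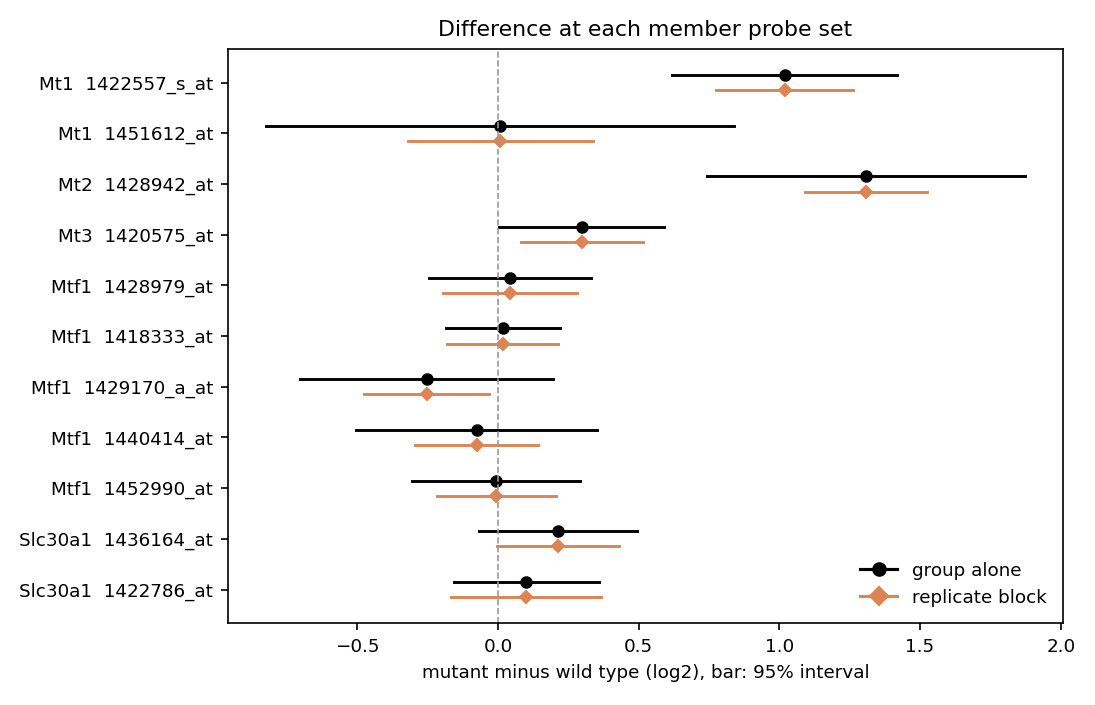
Mutant minus wild type difference (log2) at each of the 11 member probe sets with its 95% interval, in black for limma on group alone and in orange with the replicate number as a block. Mt2 at 1.31 and Mt1 at 1422557_s_at at 1.02 stand to the right, Mt3 is at 0.30, and the dimmer Mt1 probe set is at 0.01 with the widest interval.

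The other genes of zinc traffic were taken from a list of 26, all of them measured, each at its brightest probe set. They comprised the ZnT exporters (Slc30a), which move zinc out of the cytosol, the ZIP importers (Slc39a), which bring it in, the zinc transporter gene Tmem163, the zinc-sensing receptor gene Gpr39 and Mt4. None passed in either direction in either fit (limma). At an unadjusted p under 0.05 there was 1 of 26 without the block, Tmem163, against 3.02% of all probe sets, and 2 with it, Tmem163 and Slc39a1, against 7.6%. On the mutant side 14 lay higher and 12 lower, at a median difference of 0.04, against 0.02 for all 18193 genes. Tmem163 differed by -0.32 (SE 0.11). Slc39a1, a ZIP gene, differed by 0.50 (SE 0.36), from 6.83 ± 0.42 to 7.33 ± 0.68 (SD, n = 3 each). Slc39a12, a ZIP gene of the brain, differed by 0.20 (SE 0.10), from a level below the overall median, and Slc30a6, a ZnT gene of the secretory pathway, by -0.30 (SE 0.16). Among 6 further genes that have been reported as MTF1 targets 0 passed (limma), at a median of 0.11. At an unadjusted p under 0.05 there was 1 of 6, Hamp, without and with the block, against 3.02% and 7.6% of all probe sets. Hamp (-0.25, SE 0.09), the gene of the iron hormone hepcidin, read below the overall median in both groups. Others of the 6 were the growth factor gene Pgf (0.13, SE 0.10) and Selenow (0.14, SE 0.19), which encodes a selenoprotein.

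Mt1, Mt2, Mt3 and Mt4 are direct neighbours on chromosome 8 in the order Mt4, Mt3, Mt2, Mt1 (GRCm38.p6 gene table). Mt4, the form of squamous epithelia, read 3.69 in wild type and 3.64 in mutant retina, below the overall median, and differed by -0.06 (SE 0.13). The 3 protein-coding genes on each side of the cluster differed by between -0.08 and 0.18, with 0 of 6 past the threshold. Bbs2, next to Mt4, differed by 0.10 (SE 0.13) and Nup93, next to Mt1, by -0.0005 (SE 0.08). The neighbours were looked up after the member values were seen.

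Marker genes of several cell types also lay higher in mutant arrays, beside Mt1 and Mt2, as did 10621 of all 18193 genes. In bulk retina more cells of a type, more RNA per cell and more neighbouring tissue taken along at dissection cannot be told apart. Markers of the retinal pigment epithelium, the pigmented layer behind the photoreceptors, lay higher in mutant retina for 12 of 12 genes, at a median difference of 0.90, and 11 of the 12 had non-overlapping groups, against 4.73% of all probe sets. None passed (limma; 10 of 12 at an unadjusted p under 0.05, against 3.02% of all probe sets). The medians within the pairs were 0.52, 0.60 and 0.94, the last in replicate 3. Their summed signal ran from 9.23 to 10.33 in wild type and from 10.93 to 11.35 in mutant arrays (log2 of the sum), and 10 of 12 lay above the overall median. The lowest wild type sum, 9.23, was that of replicate 3, where Mt1 at its brighter probe set was lowest too, whereas Mt2 was lowest in replicate 1. Without both arrays of replicate 3 the difference was 1.24 for Mt2 and 0.93 for Mt1 at its brighter probe set. The pigment epithelium sums of replicates 1 and 2 were apart as well, at 10.33 and 10.24 in wild type and 11.26 and 11.35 in mutant arrays. Leaving out replicate 3 was chosen after the values were seen, and a link between these markers and the metallothioneins was not tested. Of the astrocyte markers 3 of 5 lay higher, at a median of 0.07, with summed signals of 8.66 to 8.99 and 9.15 to 9.45. The glial filament gene Gfap differed by 1.60 (SE 0.32) and Aldh1l1 by 0.47 (SE 0.16), while S100b differed by -0.08 and Pdgfra by -0.12. Igf2, the brightest of the 5, differed by 0.07 (SE 0.14), and the separated sums do not stand for all 5 markers. Gfap had 3 probe sets, with differences from 0.17 to 2.33. Of the microglia and macrophage markers 9 of 10 lay higher, at a median of 0.27, with sums of 8.63 to 8.77 and 9.05 to 9.20. None passed (limma; 4 of 10 at an unadjusted p under 0.05, against 3.02% of all probe sets). Müller glia markers had a median of 0.16, with 7 of 10 higher and 3 lower, and their sums overlapped at 12.61 to 12.93 and 12.86 to 12.99. None passed (limma). At an unadjusted p under 0.05 there was 1 of 10, Vim, and 3 with the block, against 3.02% and 7.6% of all probe sets. Vim differed by 0.63 (SE 0.24), and by 0.63 to 0.71 over its 3 probe sets. Glul, the brightest marker in the sum, differed by -0.08 (SE 0.11). The part of these cells in the Mt1 and Mt2 differences was not tested.

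**Figure D5:**
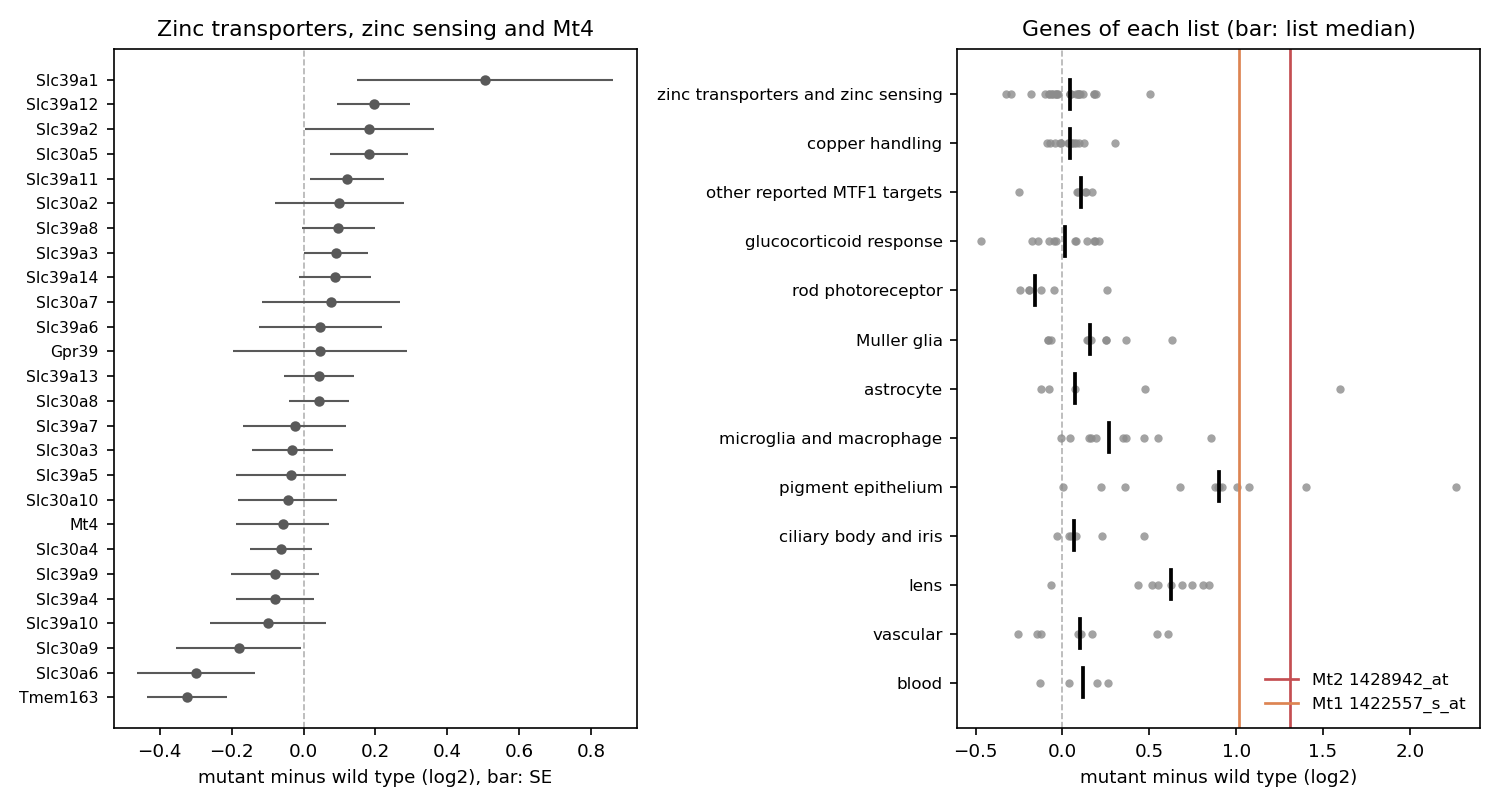
Left, mutant minus wild type difference (log2) with its SE for the 26 genes of zinc transport and sensing; right, differences (log2) of the genes of each list as points with the list median as a bar, and vertical lines at Mt2 and at Mt1 1422557_s_at. The zinc genes sit around 0 with a median of 0.04, and of the lists that of the pigment epithelium has the highest median, 0.90.

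The genes most like Mt2 and Mt1 over the 6 arrays were sought among 11803 others, each at its brightest probe set, with a mean over the 6 arrays at or above the overall median. Closest to Mt2 by Pearson correlation were Tpm3 (r = 0.986), Ddx58 (0.986), C1qc (0.986), Dhcr7 (0.984) and Dusp8 (0.984). Closest to Mt1 at its brighter probe set were Irf7 (0.997), Aire (0.989), Junb (0.985), Nrap (0.979) and Bbox1 (0.979). Of these 10, C1qc and Bbox1 had wild type means below the overall median and came in through their mutant arrays. Likeness of pattern did not mean likeness of size. C1qc, a complement gene of microglia, differed by 0.47 (SE 0.10), the transcription factor gene Junb by 0.85 (SE 0.17), and the interferon regulatory gene Irf7 by 0.23 (SE 0.08), while Ddx58 and Aire each differed by 0.10. These correlations describe 6 arrays that share the group difference.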

How the data were processed

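The deposited values are on a log2 scale. According to the submitters' processing notes the authors ran RMA, whose version is unstated. RMA corrects background, brings arrays to a common distribution and summarises probes per probe set, so differences in total signal between arrays are removed. Trizol and an RNeasy kit were used to extract the RNA, which carried a biotin label, per the labels' protocols. The deposited log2 table holds 45101 probe sets on 6 arrays, with array medians from 4.74 to 4.79. The 64 manufacturer controls were left out.

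Names of genes are those of the platform annotation (34945 probe sets with 1 symbol, 932 with several, 9160 unnamed here), with list genes also matched through Entrez IDs in a GRCm38.p6 table. Groups followed the sample titles. limma 3.58.1 in R 4.3.3 (lmFit, then eBayes) tested mutant against wild type with no other term, and Benjamini-Hochberg adjustment covered 45037 probe sets. Intervals are 95% intervals from that fit. Same-numbered arrays' deviations from their group means correlated at 0.477, 0.469 and 0.563, so the numbers were taken as pairs. This rests on the data, as the labels give the numbers no meaning. Every SE is of the fit on group alone unless the block is named beside it. Nothing says that the pools came from separate litters or days, so p-values measure the spread between these pools.

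The members, lists, tests and alternatives were chosen with earlier results of these data known. The rule for named genes takes all members at every probe set, Cdhr1, up to 3 genes per pathway list and up to 3 per marker list by p, and the 5 genes most like Mt2 and Mt1. It was not followed throughout. Several marker lists have no named gene, and Slc39a1, S100b, Igf2, Glul, Dusp1, Mt4, Bbs2 and Nup93 are named outside it. The fit was tested on simulated data with known changes. Alternatives were the replicate block, leaving out dim probe sets, array weights, median centring, further quantile normalization, eBayes with trend and robust fitting, leaving out _x_at and _s_at probe sets, a threshold of 0.10, and leaving out each array. Leaving out both arrays of replicate 3 was added after seeing the data. Sequences are from RefSeq. Figures were drawn with matplotlib 3.10.9.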

Additional observations from a re-analysis of the deposited data

How the results depend on the processing

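The difference of Mt2 kept its direction in all 14 alternatives, between 1.15 and 1.51, and that of Mt1 at 1422557_s_at in all 13, between 0.89 and 1.14. Without 1 array the adjusted p of Mt2 ran from 0.436 to 1.00 and that of this Mt1 probe set from 0.349 to 1.00. With array weights they were 0.155 and 0.0780. Mt3 (0.21 to 0.37), Slc30a1 at 1436164_at (0.16 to 0.30) and 1422786_at (0.01 to 0.17) and Mtf1 at 1429170_a_at (-0.41 to -0.10) also kept their directions, none past the threshold. The count of member probe sets past the threshold was 0, and 1 with the replicate block, which is Mt2. Over the whole array the count was 5, and it was 15 with the replicate block, 25 with array weights, 3 without probe sets that can cross-hybridise, 16 without both arrays of replicate 3 and 2 to 9 without 1 array. The block changed no other call among the members and lists, and the cause of these changes was not tested. Probe sets near 0 changed sign. The dimmer Mt1 probe set gave -0.11 with array weights and -0.30 to 0.31 without 1 array. Mtf1 at 1418333_at gave -0.0018 with array weights, -0.0112 without both arrays of replicate 3 and -0.0197 to 0.0542 without 1 array, and 1440414_at gave 0.0001 without both arrays of replicate 3 and -0.2295 to 0.0725 without 1 array. Without 1 array 1428979_at ran from -0.0662 to 0.1426 and 1452990_at from -0.1092 to 0.0948. The ratio differences against Mt3 ran from 0.67 to 0.77 for Mt1 and from 0.84 to 1.15 for Mt2 without 1 array, and that of Mt2 to Mt1 from 0.12 to 0.40. With the replicate block each of the 3 had an exact p of 0.25, the smallest that 3 pairs allow. The deposited values hold no signal over background for single probes, so levels below the overall median of 4.76 could not be read further.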

Other observations

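Genes of copper handling, the other metal that metallothioneins bind, showed 0 of 14 past the threshold in either direction (limma; 0 also at an unadjusted p under 0.05), at a median difference of 0.04 with 9 higher. Steap4, a metalloreductase gene, differed by 0.30 (SE 0.22), the copper chaperone gene Cox17 by 0.13 (SE 0.12) and Sco1 by 0.09 (SE 0.10). Steap4 read below the overall median in wild type retina and Sco1 in both groups. Of 12 glucocorticoid response genes 0 passed (limma), at a median of 0.02 with 6 higher and 6 lower. At an unadjusted p under 0.05 there were 0 of 12, and 1 with the replicate block, against 3.02% and 7.6% of all probe sets. Pdk4 differed by 0.18 (SE 0.10), from a level below the overall median in both groups, Nfkbia by 0.21 (SE 0.15) and Cdkn1a by 0.19 (SE 0.14). These had the smallest unadjusted p of the 12 by limma. The largest difference was downward, that of Dusp1 at -0.47 (SE 0.41). Glucocorticoids are a textbook inducer of Mt1 and Mt2, and their part in the Mt1 and Mt2 differences was not tested.

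The remaining marker lists overlapped between the groups in their summed signal. Ciliary body and iris markers had a median of 0.07, vascular markers of 0.10 and blood markers of 0.12. Lens markers had a median of 0.63, with pair medians of 0.05, 0.17 and 1.51, and their lowest sum, 13.55 against 14.39 to 15.08 in the 5 other arrays, was that of wild type replicate 3. The pigment epithelium sum was lowest in that array as well.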
